A study of Mus musculus with 48 samples.

Results

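The mitochondrial genome of the mouse encodes a small set of proteins, all of them subunits of the respiratory chain and of ATP synthase. The 10 genes described here are mt-Co1, mt-Co2, mt-Co3, mt-Atp6, mt-Cytb, mt-Nd1, mt-Nd2, mt-Nd4, mt-Nd5 and mt-Nd6. They were taken by name out of 12423 genes with values in both assays, and the set was proposed with earlier results on these genes in view. Because the genes were thus chosen on their levels, footprint to RNA ratios, daily terms and co-variation between pools, these measures are given for them as a description. Where members past a call rule are counted, the count is part of that description and nothing is read from it. The reference annotates 13 such genes. Of these, 12 had values in both assays, the other two being mt-Nd3 and mt-Atp8, and mt-Nd4l was not analysed here.

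The samples were kidneys of male C57BL/6JRj mice aged 11 to 12 weeks. Mice were kept in 12 h of light and 12 h of darkness, and time is given as zeitgeber time (ZT), with lights on at ZT00 and off at ZT12. Kidneys were collected at 12 timepoints spaced 2 h apart, with 2 replicate pools per timepoint and 2 mice in each pool. Each pool gave an RNA-seq library, which measures transcript abundance, and an RPF-seq library, which sequences the mRNA fragments that ribosomes protect from nuclease, so that there were 24 libraries per assay. No genotype or treatment differed between the samples, and timepoint was the factor compared. In whole kidney, fewer cells of a type and less RNA per cell cannot be told apart.

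Mitochondrial mRNAs are made inside the organelle from long transcripts of either strand, which are cut at the tRNAs that lie between the genes. They are translated there by mitochondrial ribosomes, which use a variant genetic code and differ in structure from the ribosomes of the cytosol. Their products are joined with many nuclear subunits, which are made in the cytosol and imported. The kidney, with its energy-demanding tubules, is known as a tissue rich in mitochondria.

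The starts of the 10 coding sequences were read from the GRCm38 genome at the GENCODE positions. Capitals mark the first codon, and each line gives the first 24 bases, 5′ to 3′ in the sense of the mRNA.
mt-Nd1, chrM:2751-3707, + strand: GTGttctttattaatatcctaaca
mt-Nd2, chrM:3914-4951, + strand: ATAaatcctatcacccttgccatc
mt-Co1, chrM:5328-6872, + strand: ATGttcattaatcgttgattattc
mt-Co2, chrM:7013-7696, + strand: ATGgcctacccattccaacttggt
mt-Atp6, chrM:7927-8607, + strand: ATGaacgaaaatctatttgcctca
mt-Co3, chrM:8607-9390, + strand: ATGacccaccaaactcatgcatat
mt-Nd4, chrM:10167-11544, + strand: ATGctaaaaattattcttccctca
mt-Nd5, chrM:11742-13565, + strand: ATCaatattttcacaacctcaatc
mt-Nd6, chrM:13552-14070, − strand: ATGaataattatatttttgtttta
mt-Cytb, chrM:14145-15288, + strand: ATGacaaacatacgaaaaacacac
All of these genes are single coding exons. Of the 10, 7 begin with ATG, and mt-Nd1, mt-Nd2 and mt-Nd5 begin with GTG, ATA and ATC. In mt-Co3, mt-Nd4 and mt-Cytb, 3 of the 10, a lone T follows the last whole codon, a stop codon that is known to be completed by the poly(A) tail.

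mt-Nd6, a membrane subunit of complex I, is the member encoded on the opposite strand, and its base composition was the reverse of the others. G made up 28.1% of its bases and C 5.97%, whereas the 9 heavy-strand members held between 7.996% and 16.1% G and between 23.75% and 27.75% C. At codon position 3 G stood at 22.5% in mt-Nd6 and between 1.53% and 4.08% in the 9. The 3′ ends of mt-Nd5 and mt-Nd6 overlap over 14 bases at chrM:13552-13565, shown because reads there belong to both genes if strand is ignored: mt-Nd5 carries ttaatctcgagtaa, and mt-Nd6 reads ttactcgagattaa on its own strand. mt-Atp8 and mt-Atp6 overlap over 43 bases and share an mRNA. How the counting treated strand was not given in the sources used here, so transcripts of mt-Nd6 and antisense RNA from the same region cannot be told apart.

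The depth behind the values was recovered from the steps between low RPKM values, of which at least 97.6% per library lay within 0.05 of a whole read. It ran from 9832448 to 33578514 reads in RNA-seq and from 15552853 to 35009378 in RPF-seq. Median depth was higher in the light phase (18787410 in RNA-seq, 26088570 in RPF-seq) than in the dark phase (13393791 and 20190794), so depth and time of day were not independent. Every member rested on many reads. The smallest count was 1871 for mt-Nd6 in an RNA-seq library, which gives a counting error of 2.31%, and the other 9 had at least 49636 reads in RNA-seq. The tissue label held, as kidney marker genes were present, with a median RNA-seq RPKM of 119.5 for Aqp2 of the collecting duct, 2352 for Slc34a1 of the proximal tubule and 2534 for Umod of the thick ascending limb. Markers of other tissues were low (Alb 15.2, Apoa1 2.78, Hba-a1 47.8, Ptprc 5.48, Cd68 1.84, Myh11 3.42 and Adipoq 0.892), and their part in the results was not tested (Hbb-bs, Plin1 and Ckm, also listed, were not tested). The clock genes kept time, with 24-h peaks at ZT22.5 for Arntl, ZT10.5 for Dbp and ZT14.7 for Per2 in RNA-seq (limma adjusted p = 7.65e-12, 6.83e-14 and 3.34e-11). Replicates were farther apart at some timepoints than at others. Differences between replicates over nuclear genes had an SD of 0.382 at ZT10 and 0.353 at ZT12 in RNA-seq, against 0.232 to 0.310 at the other timepoints. In RPF-seq the SD was 0.512 at ZT04 and 0.414 at ZT16, against 0.261 to 0.343 elsewhere.

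Mitochondrial transcripts were among the most abundant in the kidney. RPKM divides by length and by depth, so levels can be compared between genes. Together the 10 members made up 10.2% to 17.1% of the summed RNA-seq RPKM of a library (median 13.7%), but 0.827% to 1.78% in RPF-seq (median 1.12%). mt-Co3, a core subunit of cytochrome c oxidase (complex IV), had the highest RNA-seq level, at 22007, 25766 and 38967 RPKM (lowest, median and highest of 24 pools), the second of all genes by median. mt-Atp6, the proton channel subunit of ATP synthase (complex V), followed with 8873, 17998 and 27689. The other subunits of complex IV, mt-Co1 with its catalytic site and mt-Co2 with the entry site for electrons, had medians of 16528 and 15196, and mt-Co1 was above mt-Co2 in 12 of 24 pools, so their order was not resolved.

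The RNA-seq levels of complexes III and I were lower. mt-Cytb, the cytochrome b of complex III, stood at 5978, 9189 and 12310 RPKM. Among the membrane subunits of complex I, mt-Nd4 (median 8460) and mt-Nd1 (median 8309) did not differ beyond their spread, since mt-Nd4 was higher in 9 of 24 pools. mt-Nd2 (median 5446) was above mt-Nd5 (median 4191) in 20 of 24 pools. mt-Nd6 stood far below the rest, at 291, 615 and 1221 RPKM, and it was the member whose range did not overlap that of the next gene.

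**Figure D1:**
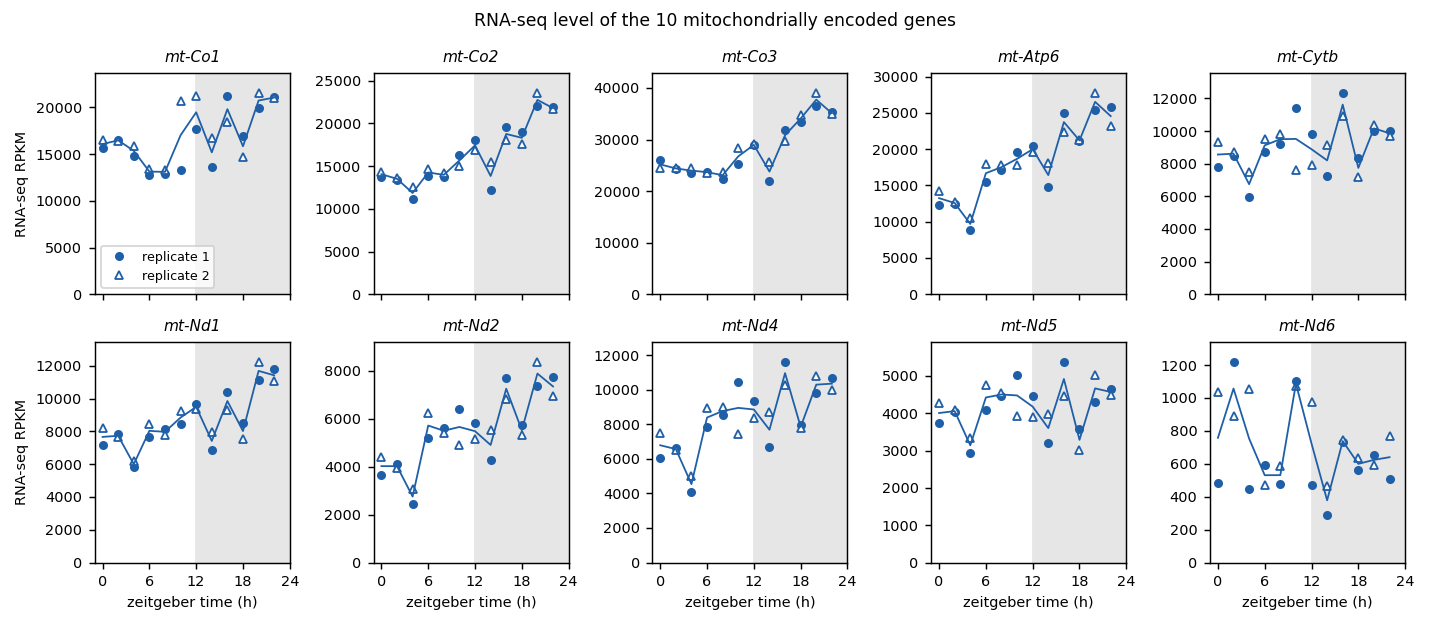
RNA-seq RPKM (vertical axis, from 0) of the 10 genes against zeitgeber time, with filled circles for replicate 1, open triangles for replicate 2, a line through the timepoint means and the dark phase in grey. The highest pool of mt-Co1, mt-Co2, mt-Co3, mt-Atp6, mt-Nd1 and mt-Nd2 was replicate 2 of ZT20, while mt-Nd6 differed most between replicates.

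Footprint levels followed another order. In RPF-seq the 3 complex IV members led, with medians of 2508 RPKM for mt-Co3, 1861 for mt-Co2 and 1303 for mt-Co1, and each was above the next in 24 of 24 pools. mt-Atp6 (median 1155) and mt-Cytb (median 1072) came next, and mt-Atp6 was the higher of them in 17 of 24 pools. The 5 complex I members lay within 473 to 657 RPKM. mt-Nd6, last in RNA-seq, was first among these 5 with 362, 657 and 1355 RPKM, above mt-Nd1 (394, 602 and 898) in 15 of 24 pools. mt-Nd5 (508), mt-Nd4 (484) and mt-Nd2 (473) closed the order. Within a pool, the highest of the 4 heavy-strand complex I genes was 1.1 to 1.64 times the lowest in RPF-seq, but 1.88 to 2.59 times in RNA-seq, and these ranges over 24 pools did not overlap. Over all 9 heavy-strand members the highest was 3.83 to 11.4 times the lowest in RPF-seq and 4.97 to 11.5 times in RNA-seq, ranges that overlapped almost whole. Across the 9 heavy-strand members the log2 medians of the assays had a Pearson r of 0.89 (n = 9 genes that share libraries). With mt-Nd6 added it was 0.62 (n = 10).

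**Figure D2:**
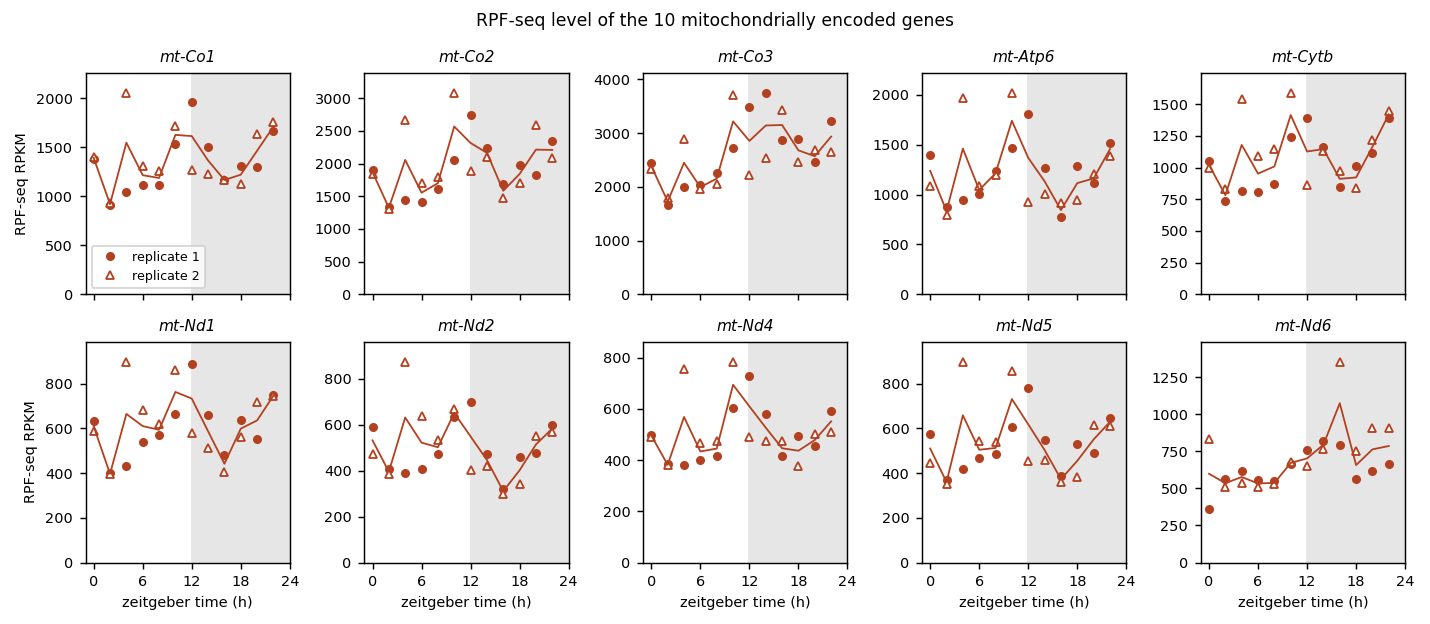
RPF-seq RPKM (vertical axis, from 0) of the 10 genes against zeitgeber time, drawn as in the plot of RNA-seq levels. Replicates of most genes were far apart at ZT04 and ZT12, and mt-Nd6 reached its highest value, 1355 RPKM, at ZT16 in replicate 2.

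The ratio of footprints to RNA (translation efficiency, TE, here the RPF-seq RPKM divided by the RNA-seq RPKM of the same pool) was far below 1 for all members but mt-Nd6. Medians over 24 pools ran from 0.0565 for mt-Nd4 through 0.0637 for mt-Atp6, 0.0711 for mt-Nd1, 0.0809 for mt-Co1, 0.0883 for mt-Co3, 0.0909 for mt-Nd2, 0.114 for mt-Co2 and 0.117 for mt-Cytb to 0.120 for mt-Nd5. Neighbours in this order overlapped, and mt-Cytb exceeded mt-Co2 in 9 of 24 pools although its median was higher. For mt-Nd6 the ratio was 0.462, 1.04 and 2.82. Its lowest pool was thus above the highest pool of mt-Nd5, at 0.270. Relative to mt-Nd5, its neighbour on the other strand, mt-Nd6 had 0.0905 to 0.317 times the RNA-seq level but 0.594 to 3.78 times the RPF-seq level. Over all 11863 genes tested the median ratio was 0.955, and 89 genes (0.750%), the other 8 heavy-strand members among them, had a median below that of mt-Nd5. The pools with the highest ratio were few. In 7 of 10 members it was replicate 2 of ZT04, the timepoint at which RPF-seq replicates differed most over nuclear genes.

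Nuclear subunits of the same complexes gave a scale for these values. The nuclear subunits of complex I had a median of 272 RPKM in RNA-seq over 36 genes, so that the members' median was 20.0 times higher. In RPF-seq the nuclear median was 405 RPKM and the members' median 1.26 times that. For complex IV the members stood 17.6 times above the median of 10 nuclear subunits in RNA-seq and 1.097 times in RPF-seq. For mt-Cytb against 9 nuclear subunits of complex III the factors were 19.3 and 1.43, and for mt-Atp6 against 14 of ATP synthase they were 26.1 and 1.15. In RPF-seq, members of complexes I, IV and V lay inside the range of their nuclear partners (156 to 1315, 58.1 to 3989 and 330 to 3121 RPKM), and mt-Cytb did as well (337 to 1475). The ratio of footprints to RNA was 0.698 or higher in all 69 nuclear subunits tested, the lowest being Ndufa6 of complex I, and so 0 of 69 lay below the median of mt-Nd5.

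**Figure D3:**
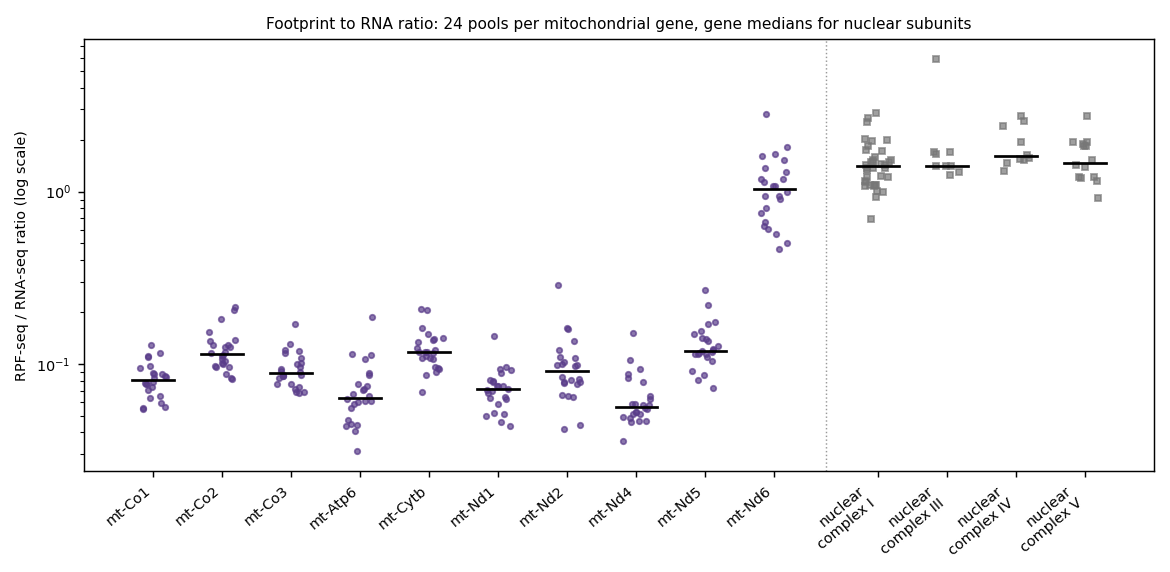
Footprint to RNA ratio on a log axis, with 1 circle per pool for each of the 10 genes (24 pools), 1 square per gene for the median ratio of nuclear subunits by complex, and bars at the medians. The medians of the 9 heavy-strand genes lie between 0.0565 and 0.120, while mt-Nd6 (median 1.04) lies beside the nuclear subunits (lowest 0.698).

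Limits of this ratio come from the protocol. Ribosomes were purified on size exclusion columns, and reads outside a length window set for footprints had been removed by the authors. Cycloheximide, present in the lysis buffer, acts on cytosolic ribosomes and not on mitochondrial ones. How much of the mitochondrial footprint population these steps kept was not tested, so ratios of mitochondrial and nuclear genes may not be on the same scale. Reads may also be shared with nuclear copies. Of the 10 members, 9 (all but mt-Nd1) resembled an annotated nuclear transcript over at least 100 bases at 90% identity or more. In 6 of them the match covered at least 99% of the length. Identity reached 100% in mt-Co2, mt-Atp6, mt-Co3 and mt-Nd4, but the match of mt-Nd4 covered 63.6% of its length. Among these nuclear copies 1, similar to mt-Nd5, had a value in the RNA-seq files, and how shared reads were divided was not given in the sources used here.

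Over the day, fitted RNA-seq levels of most members peaked in the dark phase, but not under every scaling of the libraries. A 24-h cosine was fitted to log2(RPKM + 0.1) with limma over the 11863 genes whose median reached 0.5 RPKM in each assay. A gene was called at a Benjamini-Hochberg FDR under 0.05 with a fitted peak-to-trough fold of at least 1.5. In RNA-seq, 3 of 10 members were called, beside 10.2% of all genes tested, and 7 of 10 had an FDR under 0.05 without the fold rule, beside 48.6% of all genes. A 12-h term was called in 1 of 10, beside 0.598%. Since the daily and 12-h terms chose these genes, nothing is read from those counts, here or in the other readouts. The median fold of the members was 1.41 against 1.20 for all genes tested. The fitted curves of 9 members, which share libraries, peaked in the dark phase, between ZT14.0 and ZT18.8. Among all genes called in RNA-seq, 36.3% peaked in the dark phase, and the share over all genes tested is not given here. Members with a dark-phase peak numbered 9 with median centring, 8 with equal summed RPKM, 7 with GC adjustment and 4 under quantile normalisation. Under quantile normalisation, mt-Co1, mt-Co2, mt-Cytb and mt-Nd5 joined mt-Nd6 in the light phase, and mt-Co3, held at a fixed rank, had no curve. mt-Atp6, mt-Nd1, mt-Nd2 and mt-Nd4 peaked in the dark phase under each of these scalings.

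mt-Atp6 had the widest RNA-seq curve. It stood at 8873, 14832 and 19584 RPKM in the light phase (lowest, median and highest of 12 pools) and at 14735, 21849 and 27689 in the dark phase. Both replicates were lowest at ZT04 (8873 and 10499). The highest values were 25860 at ZT22 in replicate 1 and 27689 at ZT20 in replicate 2. The phases overlapped only in part. The fitted log2 peak-to-trough difference was 0.85 ± 0.17 (SE), a fold of 1.80, with the peak at ZT16.6 ± 0.77 h. Its fitted 12-h fold was 1.57 with a first peak at ZT8.50, and that of mt-Nd2 was 1.58.

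mt-Nd2 followed, a complex I subunit of the proton-pumping arm. Its RNA-seq level was 2440 and 3058 RPKM at ZT04 and 7377 and 8376 at ZT20. The fitted difference was 0.70 ± 0.20, a fold of 1.63, with the peak at ZT16.5 ± 1.06 h. mt-Co2, at 0.60 ± 0.12 with a peak at ZT18.2, lay just inside the fold rule (1.51). Just outside were mt-Nd4 (1.48) and mt-Co3 (1.47, peak at ZT18.8 ± 0.69 h). mt-Co3 had the closest replicates of all members in RNA-seq, and its daily curve took up 63.4% of its variance, against a median of 28.2% for all genes. mt-Co1 (1.35) and mt-Nd1 (1.33) were lower. mt-Cytb (1.15), mt-Nd5 (1.05) and mt-Nd6 (1.26, the member with a fitted peak in the light phase, at ZT2.82 ± 3.18 h) had SEs that left their peak times loosely placed.

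These RNA-seq profiles were not smooth. At ZT04, 7 of the 9 heavy-strand members had both replicates below every pool of the neighbouring timepoints. The same held for 5 of 9 at ZT14 and for 7 of 9 at ZT18, and 7 of 9 stood above both neighbours at ZT16. Thus mt-Nd5 was at 5383 and 4450 RPKM at ZT16, at 3565 and 3009 at ZT18 and at 4299 and 5032 at ZT20. The ZT18 pools of mt-Nd5 thus lay below all pools of ZT16 and ZT20. The counts at ZT04, ZT14, ZT16 and ZT18 have no share over all genes beside them, and the 9 genes come from the same libraries. Whether profiles of other genes ran likewise was not tested. The pool with the lowest RNA-seq level was replicate 1 of ZT04 in 7 of 10 members.

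At ZT10 and ZT12, where replicates differed most over nuclear genes in RNA-seq, members differed in direction. At ZT10 the level of mt-Co1 was 13332 RPKM in replicate 1 and 20727 in replicate 2. mt-Cytb, mt-Nd4, mt-Nd2 and mt-Nd5 went the other way, at 0.667, 0.710, 0.764 and 0.781 times replicate 1. At ZT12 mt-Co1 was again higher (1.20 times) and mt-Cytb lower (0.808 times) in replicate 2. Without replicate 2 of both timepoints, an alternative chosen after seeing the data, the median fold of the members in RNA-seq was 1.48. Libraries also differed in how levels ran with GC content over nuclear genes, from -0.215 to 0.265 log2 units per 10 percentage points in RNA-seq. Over the 24 pools this slope had a Pearson r of -0.78 with mt-Co1 and -0.09 with mt-Nd5, the lowest and highest among the heavy-strand members. With each library adjusted for GC content (added after seeing the data) the median fold was 1.30. The part of GC content in the members' curves beyond this was not tested.

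mt-Nd3 and mt-Atp8, the mitochondrial genes outside the set, also differed between the replicates of ZT10 and ZT12 in RNA-seq. mt-Nd3, a small complex I subunit, ranged from 12987 to 16996 RPKM in both replicates of ZT18, ZT20 and ZT22 and in replicate 2 of ZT10 (13931) and ZT12 (14178), and from 5026 to 10913 in all other pools. In replicate 1 of these last timepoints it was 6983 and 8622. Its 24-h term gave a fold of 2.19 with a peak at ZT17.8 (log2 difference 1.13 ± 0.21, limma adjusted p = 0.000504). It passed the rule in 24 of 24 fits with a pool left out, and in 10 of 12 other settings, where its adjusted p went from 5.66e-06 to 0.085 (replicate 2 alone). mt-Atp8, an ATP synthase subunit, gave a fold of 1.91 (0.93 ± 0.21, limma adjusted p = 0.0034). It passed the rule in 24 of 24 fits with a pool left out and in 10 of 12 other settings, where its fold went from 1.18 to 2.17 and its adjusted p reached 0.164. Over the 24 pools the log2 levels of mt-Atp8 and mt-Atp6, which share an mRNA, had a Pearson r of 0.91 in RNA-seq. In RPF-seq it was 0.67. For mt-Nd3 and mt-Co3 the r was 0.93 in RNA-seq. The tests of mt-Nd3 and mt-Atp8, here and for the ratio, are thus not independent of the terms that chose the members.

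In RPF-seq the daily terms of the members were smaller, and other genes led. The rule called 1 of 10 members, mt-Nd6, beside 7.58% of all genes, and an FDR under 0.05 alone was met by 2 of 10, beside 30.9%. The median fold of the members was 1.18, as in all genes tested (1.18). Fitted peaks lay in the dark phase in 5 of 10 members, but in 10 of 10 in replicate 1 alone and in 2 of 10 in replicate 2 alone. Among all genes called in RPF-seq, 41.7% peaked in the dark phase. mt-Nd6 footprints stood at 362, 552 and 835 RPKM in the light phase and at 561, 762 and 1355 in the dark phase, with a fitted log2 difference of 0.67 ± 0.16, a fold of 1.59 and a peak at ZT16.3 ± 0.93 h. The phases overlapped, and the highest light value and the lowest value of all were the replicates of ZT00 (835 and 362). mt-Co3 was just outside at 1.49 (0.58 ± 0.14, peak at ZT15.3). The other 8 had folds from 1.08 for mt-Cytb to 1.30 for mt-Nd2, and SEs of their peak times of 2.00 to 5.75 h.

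**Figure D4:**
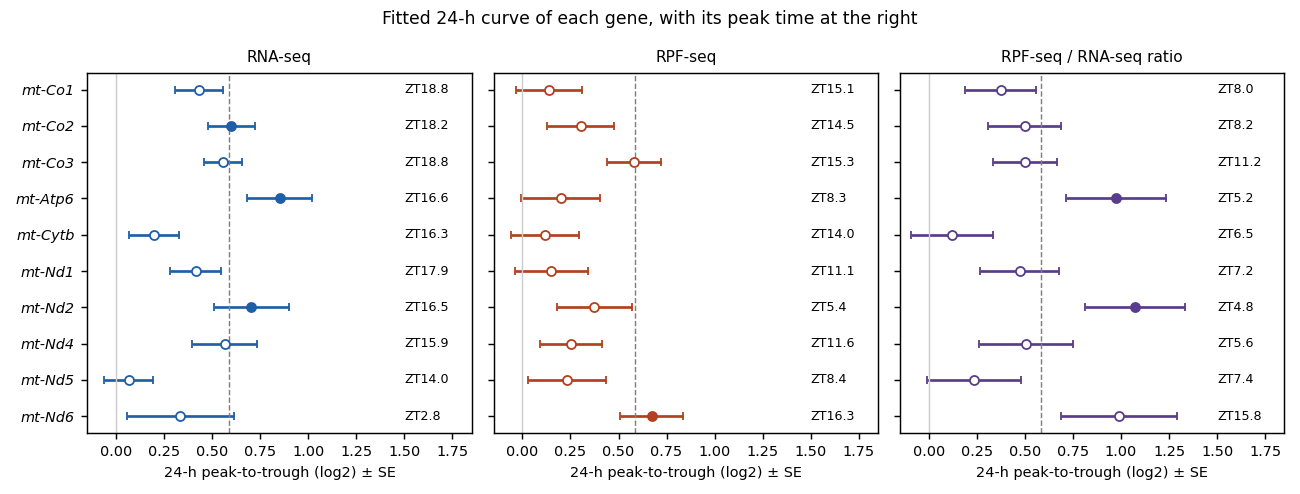
Fitted 24-h peak-to-trough difference on the log2 scale with its SE for each gene in RNA-seq, RPF-seq and their ratio. Filled points met the call rule, the dashed line marks the 1.5-fold limit, and the fitted peak time stands at the right (mt-Atp6 in RNA-seq at ZT16.6, mt-Nd6 in RPF-seq at ZT16.3).

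The 12-h folds fitted to the footprints were larger in most members when a single library was left out. With all pools, 0 of 10 members were called for a 12-h term in RPF-seq (limma), beside 0.700% of all genes, and 6 of 10 had an unadjusted p under 0.05, beside 15.8%. The 12-h folds of mt-Atp6 (1.46), mt-Nd2 (1.44), mt-Nd1 (1.44) and mt-Nd5 (1.42) exceeded their 24-h folds (1.15, 1.30, 1.11 and 1.18), and their first 12-h peaks fell between ZT9.55 and ZT9.92. Without replicate 2 of ZT04, a fit added after seeing the data, the 12-h folds ran from 1.46 for mt-Nd4 to 1.69 for mt-Atp6 in 8 members, and were 1.22 for mt-Co3 and 1.06 for mt-Nd6.

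The ratio of footprints to RNA put the RNA-seq curves and the flatter footprint curves together. For the ratio, 2 of 10 members were called, beside 3.74% of all genes, and the same count met an FDR under 0.05 alone, beside 17.1%. The fitted ratio of mt-Nd2 was highest at ZT4.81 ± 0.93 h, with a log2 difference of 1.07 ± 0.26 and a fold of 2.10. It was 0.159 and 0.286 at ZT04 and 0.0418 and 0.0440 at ZT16. For mt-Atp6 the fold was 1.97, the peak was at ZT5.22 and the values were 0.107 and 0.188 at ZT04 and 0.0311 and 0.0407 at ZT16. mt-Nd6 had a fold of similar size (1.99) with a peak at ZT15.8, but a larger SE (0.99 ± 0.30), and did not meet the rule. For the 12-h term of the ratio, 0 of 10 members were called (limma), beside 0.0169% of all genes. At an unadjusted level of 0.05 it was 0 of 10, beside 9.69%. The fitted 12-h folds of the ratio ran from 1.08 for mt-Nd1 to 1.38 for mt-Nd2. The adjusted p of mt-Atp8, outside the set, was 0.025 for the ratio (limma, fold 1.97, peak at ZT4.93) and reached 0.388 over 12 other settings, of which 9 kept the call, and that of mt-Nd3 was 0.051 (fold 1.78).

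At a given time of day, footprints of the heavy-strand members moved together from pool to pool. At ZT04, replicate 2 exceeded replicate 1 in RPF-seq in 9 of 9 of these genes, from 1.45 times in mt-Co3 to 2.25 times in mt-Nd2, and mt-Atp6 went from 950 to 1973 RPKM. At ZT12 the order was reversed in 9 of 9, with mt-Atp6 at 1812 in replicate 1 and 925 in replicate 2. mt-Nd6 moved little at these timepoints, at 0.863 and 0.856 times replicate 1. The 12 differences between replicates had a median Pearson r of 0.91 over the 36 pairs of heavy-strand members (0.67 to 0.96), and of -0.20 between these members and mt-Nd6 (-0.30 to 0.09, n = 12 timepoints).

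These differences were wider than those of most nuclear genes of like level. The root mean square difference between replicates in RPF-seq was between 0.349 log2 units in mt-Co3 and 0.490 in mt-Nd6, with a median of 0.414 for the members. For 282 nuclear genes with a median of at least 500 RPKM the median was 0.159 and the 95th percentile 0.328, below each of the 10 members. The mean difference over the 9 was 0.97 log2 units at ZT04 and -0.69 at ZT12, and the SD of the replicate difference over nuclear genes was 0.512 and 0.297.

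In RNA-seq the members' replicate differences were smaller, with a median of 0.227 log2 units against 0.153 in 205 nuclear genes of at least 500 RPKM. mt-Co3 had the lowest (0.0986). mt-Nd6 had the highest (0.651), with replicate 2 at 2.14 times replicate 1 at ZT00, 2.35 times at ZT04 and 2.07 times at ZT12. The heavy-strand pairs had a median r of 0.64 (-0.28 to 0.96). Replicate differences of a gene in the 2 assays, from the same pools, had an r between -0.06 in mt-Co3 and 0.46 in mt-Nd2 (n = 12). Over the 24 pools the r of depth with the mean log2 level of the 9 was -0.47 in RNA-seq and -0.18 in RPF-seq, and between their replicate differences it was 0.29 and 0.18 (n = 12). The slope on GC content had an r of -0.60 with the mean RPF-seq level of the 9. The part of depth and of GC content in the co-variation was not tested.

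**Figure D5:**
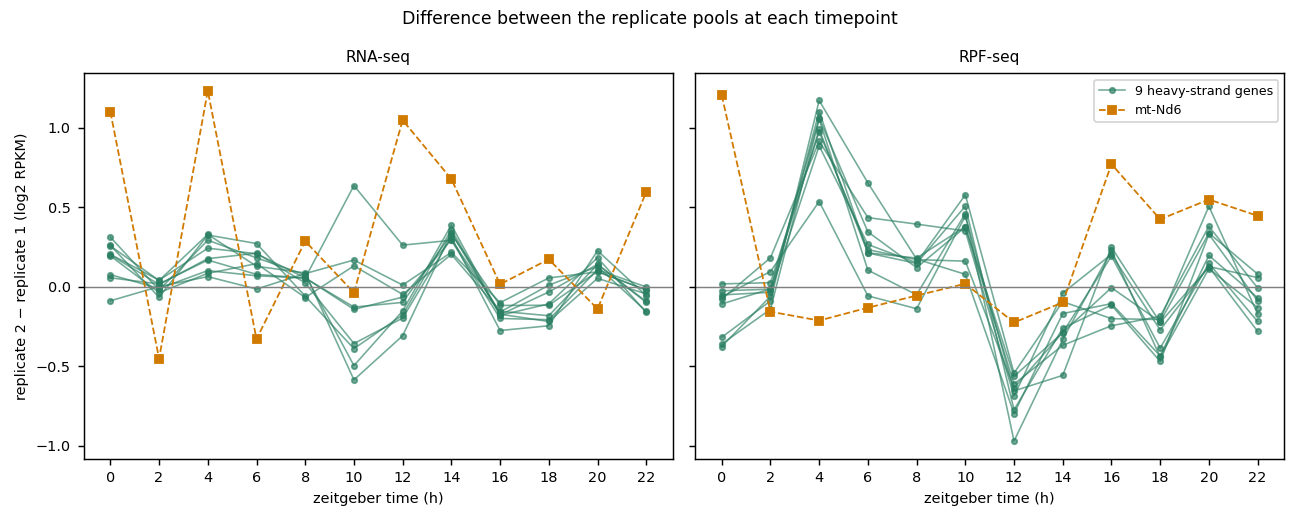
Difference between the replicate pools (replicate 2 minus replicate 1, log2 RPKM) at each timepoint in RNA-seq and RPF-seq, with a green line per heavy-strand gene (9) and an orange dashed line for mt-Nd6. In RPF-seq the green lines rise together at ZT04 (mean 0.97) and fall together at ZT12 (mean -0.69).

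The nuclear genes whose RNA-seq profile over 24 pools was most like the mean profile of the members, among 11851, were Snx3 (Pearson r 0.81), Ube2d3 (0.77), Sirt1 (0.77), Rps13 (0.76) and Tmem70 (0.75). For comparison, the r of single members with this mean, which includes them, ran from 0.28 in mt-Nd6 to 0.95 in mt-Nd1. In RPF-seq the most alike were Ergic2 (0.80), Naalad2 (0.80), Klhl12 (0.78), Nup155 (0.77) and Alg6 (0.74). The lists did not share a gene. These values share libraries and are a description.

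The nuclear genes that copy, transcribe, process and translate mitochondrial DNA were followed as a list of 50, of which 48 were tested. In RNA-seq 4 of 48 were called, 3 peaking in the dark phase and 1 in the light phase, and 34 of 48 had an FDR under 0.05 without the fold rule. These counts stand beside 10.2% and 48.6% of all genes tested, and the median fold of the list was 1.20, as in all genes. Tfb2m, a mitochondrial transcription factor, was low (1.11, 1.92 and 2.66 RPKM) and peaked at ZT8.58 ± 0.65 h with a log2 difference of 0.75 ± 0.13 (limma adjusted p = 0.000166). Trmt10c, a subunit of the enzyme that cuts tRNAs from mitochondrial transcripts, stood at 16.4, 25.4 and 39.8 RPKM and peaked at ZT19.2 ± 0.51 h with a difference of 0.74 ± 0.10 (adjusted p = 7.85e-06).

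The remaining called factors were RNA-binding proteins of the FASTK family, which act on mitochondrial transcripts. Fastkd5 (1.78, 2.95 and 3.82 RPKM) peaked at ZT18.9 with a fold of 1.62 (limma adjusted p = 0.000128). Fastk (21.3, 30.5 and 39.8 RPKM) peaked at ZT12.1 ± 0.53 h with a fold of 1.53 (limma adjusted p = 1.34e-05). Its peak, counted in the dark phase, lay within its SE of lights off.

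In RPF-seq 2 of 48 factors were called, both in the light phase, beside 7.58% of all genes, and 11 of 48 had an FDR under 0.05, beside 30.9%. Mterf2, of the mitochondrial termination factor family, stood at 3.45, 5.93 and 9.91 RPKM and peaked at ZT6.32 ± 0.61 h with a fold of 1.74 (limma adjusted p = 0.000165). Polg2, the accessory subunit of the mitochondrial DNA polymerase, stood at 2.99, 4.74 and 6.98 RPKM and peaked at ZT8.39 with a fold of 1.56 (adjusted p = 0.00571). In RNA-seq Polg2 was just under the fold rule (fold 1.48, limma adjusted p = 0.000944). For the ratio, 2 of 48 were called, Fastk (fold 1.67, peak at ZT2.31) and Trmt10c (fold 1.57, peak at ZT8.44), beside 3.74% of all genes. A difference between the assays was not tested for Mterf2 and Polg2 beyond the ratio test, which did not call them.

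Few nuclear subunits of the respiratory chain met the fold rule. Of the 69 tested in complexes I, III, IV and V, 2 were called in RNA-seq, 1 in RPF-seq and 1 for the ratio, beside 10.2%, 7.58% and 3.74% of all genes. Their median folds were 1.14, 1.101 and 1.18. With an FDR under 0.05 alone they numbered 28, 13 and 18 of 69, beside 48.6%, 30.9% and 17.1% of all genes. Among 36 subunits of complex I, 0 were called in either assay (limma; 11 had an FDR under 0.05 without the fold rule in RNA-seq and 8 in RPF-seq, and 15 and 12 an unadjusted p under 0.05). Whether the daily curves of mitochondrial and nuclear subunits differ was not tested.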

How the data were processed

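Per the labels, kidney lysates of 2 mice were pooled, and each of 24 pools gave an RNA-seq and an RPF-seq library. After adapter trimming and selection by length, reads were aligned stepwise, first to rRNA and tRNA, then to cDNA and to GRCm38 (tools named in the labels include Bowtie2 2.2.1 and TopHat2 2.0.11). The authors deposited RPKM values, 1 table for each library, scaled by upper quantiles in edgeR and without genes under a cutoff. A change of all transcripts together is therefore not visible.

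The values are not counts, so limma 3.58.1 (R 4.3.3) was run on log2(RPKM + 0.1) of the 11863 genes, out of 12423, whose median reached 0.5 RPKM in each assay. Moderated F tests of the 24-h terms, and of 12-h terms in a fit with both, were adjusted over all genes tested, and TE was the log2 ratio within a pool. Summaries used Python 3.11.15, pandas 2.3.3 and numpy 2.4.6. Coding lengths, positions and sequences came from GENCODE vM21 and GRCm38, with Ensembl IDs paired to symbols for 12373 of 12423 genes.

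The members and gene lists were chosen with earlier results of these data known. Named genes are all members, the other mitochondrial protein genes, up to 6 called factors with the largest fold per assay, the 5 nuclear genes most like the mean member profile per assay, clock genes and markers. Of the listed genes Mterf1b, Prorp, Cox4i1 and Atp5d were not analysed here, and 1 listed marker is not reported here. Labels number the pools of a timepoint as replicates. The p-values set the fitted terms against the scatter of pools around the fitted curve. That scatter holds the spread between pools and any departure of timepoints from the curve. Alternatives covered pseudocounts (1, 0.01), filters (2, none), scaling, thresholds, a replicate block, GC content and left-out libraries.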

Additional observations from a re-analysis of the deposited data

How the results depend on the processing

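Counts of members describe genes chosen on these terms. The count with a 24-h term in RNA-seq (3) became 1 under quantile normalisation and 1 with equal summed RPKM, settings that by construction fix the values by rank or the total, and 7 without the fold rule. It lay between 0 and 1 without replicate 1 or 2 and between 1 (without ZT04 replicate 1) and 5 (without ZT14 replicate 1) with each pool left out in turn. The count with a 12-h term (1) became 2 under quantile normalisation and 2 with GC adjustment, 0 at an FDR of 0.01, 0 without either replicate, and 0 (without either pool of ZT14 or ZT20 replicate 2) to 2 (without ZT12 replicate 1) with a pool left out. The median RNA-seq fold (1.41) became 1.19 under quantile normalisation. In RPF-seq the 24-h count (1) became 2 with median centring, 2 with GC adjustment and 2 without the fold rule, and ran from 0 to 2 with a pool left out. The RPF-seq 12-h count (0) ran from 0 to 8 (without ZT04 replicate 2). Without that pool 1.51% of all genes tested were called for a 12-h term in RPF-seq, against 0.700% with all pools. The RPF-seq 24-h count was 0 without ZT16 replicate 2. The median RPF-seq fold (1.18) was 1.11 to 1.36 without a replicate or a pool. For TE the 24-h count (2) became 1 under quantile normalisation, 0 at an FDR of 0.01, 0 without either replicate, 1 (without ZT04 replicate 2 or a pool of ZT16 or ZT20) to 4 (without ZT12 replicate 2) with a pool left out. The median TE fold (1.41) became 1.21 with GC adjustment, and 1.34 to 1.60 with a replicate or a pool left out. The factor counts (4 in RNA-seq and 2 in RPF-seq) became 2 and 1 with a pseudocount of 1, 34 and 11 without the fold rule, and lay between 2 and 9 and at 1 without a replicate. Except where a setting is described above, the cause of these changes was not tested. The median member log2 TE (-3.44) moved by less than its spread over pools in 11 of 11 alternatives.

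With the replicate number as a block, the counts were as without it: 3, 1 and 2 members had a 24-h term in RNA-seq, RPF-seq and TE. Numbers were not taken to pair the timepoints, since the correlation of replicate differences between timepoints had a median of 0.007 in RNA-seq (13 of 66 pairs above 0.1) and 0.039 in RPF-seq (10 of 66). GC adjustment, leaving out each pool and leaving out the ZT10 and ZT12 replicate 2 RNA-seq libraries were chosen after seeing the data. Counting error of the members, with reads taken as independent, was at most 2.31%. The part of depth in the results was not tested.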
